A study of Mus musculus with 6 samples.

Results

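The chains of the T-cell receptor (TCR), its CD3 signaling partners and the CD8 coreceptor were chosen by gene symbol and not by a threshold on their values. They are Cd3e, Cd3d, Cd3g, Cd247, Cd8a, Cd8b1, Trac, Trbc1 and Trbc2, which are 9 of the 34245 genes in the RNA-seq table. Total RNA, taken up in trizol, came from lymph nodes of terminally sick FVB/N mice with peripheral T-cell lymphoma (PTCL) that carried a germline knockout of 1 Dnmt3b allele (Dnmt3b+/-), derived from Dnmt3b 2loxP mice. The group holds 3 independent tumors, sequenced as paired reads of 150 bases, and the ages of the mice are not given in the sources used here. Libraries of normal T-cells were not analysed here, so values are described within and between the 3 tumors and no test between groups was made. Levels are in FPKM, the reads of a gene scaled to the length of its exons and to the depth of its library. The FPKM are scaled to 30726570, 18969988 and 20770928 reads for tumors 1, 2 and 3.

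In an alpha-beta T-cell the TCR alpha and beta chains recognize a peptide on an MHC molecule but have no signaling tail of their own. The CD3 gamma, delta and epsilon chains and the zeta chain, which Cd247 encodes, carry the signal into the cell, and CD8, a dimer of CD8 alpha and CD8 beta, binds MHC class I and brings the kinase Lck to the receptor. Each TCR chain is assembled in the thymus by joining V and J segments, with a D segment in between for the beta chain, and the joined exon is then spliced to a constant region, so all cells of a T-cell clone share their joined segments.

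All 9 genes were strongly expressed in every tumor, and their means lay between the 96.6th and the 99.8th percentile of all genes. Together they made up 0.754%, 0.594% and 0.698% of the summed FPKM of tumors 1, 2 and 3. The CD8 chains were lowest in tumor 2, whereas Cd3e, Cd3g and Trac were highest there. Among the TCR constant regions, the sharpest contrast lay between the beta chain genes, where tumor 2 had mostly Trbc1 and tumor 1 mostly Trbc2. These are bulk RNA values, in which fewer cells of a type and less RNA per cell cannot be told apart.

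**Figure D1:**
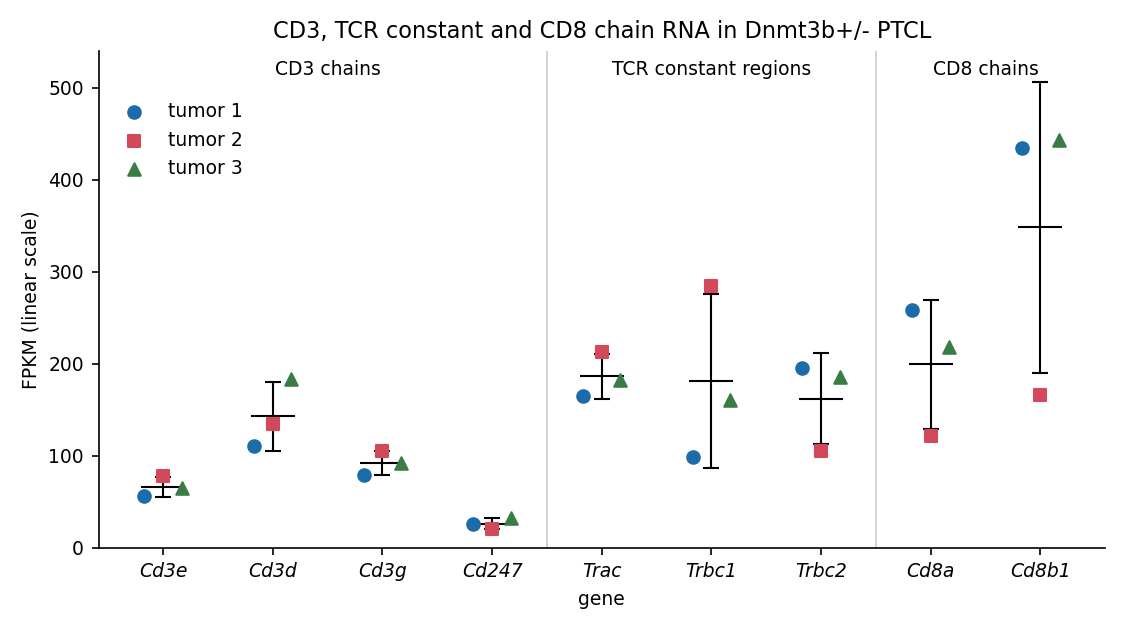
FPKM on a linear scale of the 9 chains in Dnmt3b+/- PTCL 1, 2 and 3 (points), with the mean (bar) and SD (whiskers, n = 3). Both CD8 chains were lowest in tumor 2, and Trbc1 and Trbc2 ran in opposite directions.

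Of the CD3 chains, Cd3e (ENSMUSG00000032093, chr9:44998740-45009627 of mm10), which encodes the epsilon chain that pairs with both gamma and delta, had 56.4, 78.1 and 65.3 FPKM in tumors 1, 2 and 3. Cd3g (ENSMUSG00000002033, chr9:44969572-44980431), which encodes the gamma chain, had 78.8, 105.7 and 91.8 FPKM in tumors 1, 2 and 3. Both genes thus had the same order of tumors, and their ratio barely moved. Cd3g had 1.40, 1.35 and 1.41 times the FPKM of Cd3e in tumors 1, 2 and 3. Cd3d (ENSMUSG00000032094, chr9:44981786-44987339), which encodes the delta chain and lies head to head with Cd3g, had 110.3, 135 and 183 FPKM in tumors 1, 2 and 3. In contrast to its neighbour, it was highest in tumor 3, where it had 2.80 times the FPKM of Cd3e, against 1.96 times in tumor 1 and 1.73 times in tumor 2.

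Cd247 (ENSMUSG00000005763, chr1:165788681-165877277), whose zeta chain carries several tyrosine motifs that the kinase Lck phosphorylates, was the lowest of the 9 genes in every tumor, with 25.9, 20.9 and 32.4 FPKM in tumors 1, 2 and 3. It was lowest in tumor 2, where Cd3e was highest. Its ratio to Cd3e was 0.267 in tumor 2, compared with 0.460 in tumor 1 and 0.496 in tumor 3. Each of the 4 CD3 genes rested on at least 2111 reads in every tumor.

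Some CD3 genes overlap other annotated genes. The gene AC122305.3 lies on the strand opposite to Cd3e, and 135 of its 361 exon bases lie in exons of Cd3e. Its 67.3, 95.1 and 71.5 FPKM in tumors 1, 2 and 3 followed the order of Cd3e. The sources used here do not say that reads were counted by strand, so reads of the 2 genes within these shared bases cannot be told apart. With all reads of AC122305.3 taken off, Cd3e had 50.5, 69.7 and 58.9 FPKM, in the same order of tumors. AC122305.4, on the strand of Cd3e, had only 1.08, 1.53 and 0.918 FPKM. Gm16565 overlaps the start of Cd247 on the same strand and had 7.33, 5.75 and 9.01 FPKM. On the opposite strand, Pou2f1 overlaps Cd247 and had 2.50, 1.75 and 2.45 FPKM. Gm32999, Gm37856 and Gm37469, also opposite to Cd247, had at most 1.06 FPKM in any tumor. Whether these genes share reads with Cd247 was not tested.

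Of the TCR constant regions, Trac (ENSMUSG00000076928, chr14:54220521-54224206), the only constant region of the alpha chain, had 165, 213 and 182 FPKM in tumors 1, 2 and 3. Trbc1 (ENSMUSG00000076490, chr6:41538218-41539881), the first constant region of the beta chain, had 98.2, 284 and 161 FPKM in tumors 1, 2 and 3. Trbc2 (ENSMUSG00000076498, chr6:41546730-41548352), the second, had 195, 105 and 186 FPKM in tumors 1, 2 and 3. The beta chain genes therefore changed places between tumors, while their sum moved little. Trbc1 and Trbc2 together had 293, 389 and 347 FPKM in tumors 1, 2 and 3, and the ratio of Trac to this sum was 0.561, 0.547 and 0.525. The ratio of Trbc1 to Trbc2, in contrast, was 0.503, 2.71 and 0.867 in the same order.

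**Figure D2:**
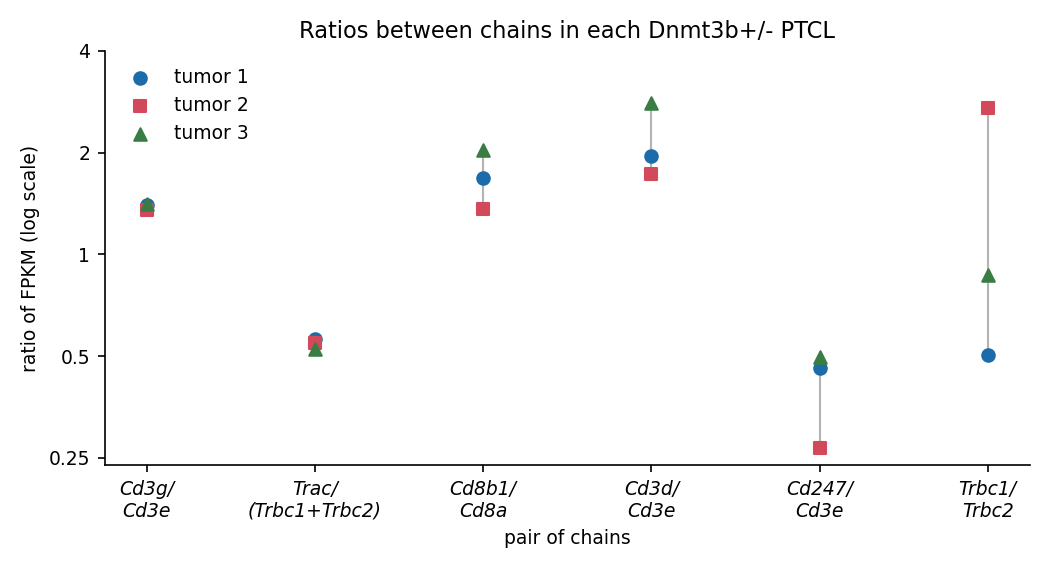
Ratios of FPKM between chains in each Dnmt3b+/- PTCL, on a log scale. A line runs from the lowest to the highest tumor, and Cd3g to Cd3e and Trac to the summed Trbc genes lay close together in the 3 tumors (1.04-fold and 1.07-fold between highest and lowest), while Trbc1 to Trbc2 spanned 5.38-fold.

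The mouse beta chain locus holds a pair of clusters in a row, each with a D segment, a set of J segments and a constant region, and the J segment used decides which constant region is spliced on. Trbc1 and Trbc2 are near-identical copies. Over the first 3 exons, which have equal lengths in both genes, they differ at 19 of 500 bases (96.2% identity), and only 1 difference lies in the 375 bases of exon 1. That difference is C260A, with Trbc1 first and positions counted from 1 at the 5′ end of the exon. Exon 2 holds 3 differences in 18 bases and exon 3 holds 15 in 107. The sequences around the difference in exon 1 and of exon 3 are shown because the first is the only one in that exon and the second holds most of the 19. They are the plus strand of GRCm38, the assembly behind mm10, 5′ to 3′, with bases that differ between the copies in capitals. The stretches of exon 1 are chr6:41538402-41538552 for Trbc1 and chr6:41546914-41547064 for Trbc2, and exon 3 is chr6:41539229-41539335 and chr6:41547772-41547878.

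Trbc1 exon 1: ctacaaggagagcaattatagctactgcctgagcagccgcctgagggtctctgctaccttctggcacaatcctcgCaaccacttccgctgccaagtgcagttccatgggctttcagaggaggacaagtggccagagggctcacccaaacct
Trbc2 exon 1: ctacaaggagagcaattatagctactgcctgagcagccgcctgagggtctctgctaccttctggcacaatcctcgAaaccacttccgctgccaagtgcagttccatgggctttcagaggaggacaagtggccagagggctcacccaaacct
Trbc1 exon 3: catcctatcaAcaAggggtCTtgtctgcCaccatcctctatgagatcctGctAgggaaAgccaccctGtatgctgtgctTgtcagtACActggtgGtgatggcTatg
Trbc2 exon 3: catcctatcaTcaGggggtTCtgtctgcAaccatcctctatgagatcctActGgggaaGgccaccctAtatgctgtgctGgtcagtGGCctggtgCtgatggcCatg

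Reads that fall wholly in shared sequence cannot be placed by their own bases, although the other read of the pair may place them. Of all stretches of 150 bases, the length of a read, 110 of 588 in the spliced Trbc1 constant region (18.7%) also occur in Trbc2, and 110 of 543 in Trbc2 (20.3%) occur in Trbc1. These shares are of single stretches and need not equal the share of read pairs that cannot be placed. The deposited values rest on reads of high mapping quality only. How reads in shared sequence were handled was not tested, so the split between the copies is uncertain. Among the reads that were placed, Trbc1 had 2259 of 6408 in tumor 1, or 35.3% (95% Wilson interval 34.1% to 36.4%). In tumor 2 it had 4038 of 5416 reads, or 74.6% (73.4% to 75.7%). In tumor 3 it had 2506 of 5178 reads, or 48.4% (47.0% to 49.8%). These intervals cover counting error only, and they do not overlap between the tumors.

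The J segments showed the same order of tumors. The table holds 13 beta J segments of 46 to 54 bases, 7 of the first cluster (Trbj1) and 6 of the second (Trbj2). The Trbj1 segments with the most reads in tumors 2 and 3 (Trbj1-3 and Trbj1-4) are shown. By FPKM, Trbj1-7 was above Trbj1-3 in tumor 2 (60.7 against 57.6). The Trbj2 segments with the most reads in tumors 1 and 3 (Trbj2-3 and Trbj2-7) are shown too. So is Trbj2-2, from which reads rose in tumor 1. Capitals mark the first match to TTNGG on the printed strand, the start of the motif that J segments have in common. A match was found in 12 of the 13 beta segments, the exception being Trbj1-6. In Trbj1-7 it was TTAGG and began at base 35 of 46, whereas the other matches began at bases 17 to 21. The count is thus of matching letters and need not be of the shared motif. The coordinates are chr6:41534323-41534376 for Trbj1-3, chr6:41534811-41534861 for Trbj1-4, chr6:41542957-41543007 for Trbj2-2, chr6:41543223-41543271 for Trbj2-3 and chr6:41543810-41543856 for Trbj2-7, all on the plus strand of GRCm38.

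Trbj1-3: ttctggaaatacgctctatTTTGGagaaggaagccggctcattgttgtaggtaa
Trbj1-4: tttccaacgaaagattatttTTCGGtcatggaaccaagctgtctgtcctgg
Trbj2-2: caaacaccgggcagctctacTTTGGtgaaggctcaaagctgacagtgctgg
Trbj2-3: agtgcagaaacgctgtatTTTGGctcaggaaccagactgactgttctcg
Trbj2-7: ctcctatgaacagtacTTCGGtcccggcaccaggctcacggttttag

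In tumor 1, the Trbj1 segments had 4 to 18 reads each and Trbj2-1 had 16 reads. From Trbj2-2 on, reads were several times higher, with 73 on Trbj2-2, 87 on Trbj2-3, 72 on Trbj2-4, 49 on Trbj2-5 and 63 on Trbj2-7. In tumor 2, the picture was the reverse. Trbj1-1 had 13 reads and Trbj1-2 had 23, and Trbj1-3 to Trbj1-7 had 36 to 59. No read was found on Trbj2-1, Trbj2-2, Trbj2-3 or Trbj2-4 in tumor 2, and Trbj2-5 had 4 reads and Trbj2-7 had 22. Taking tumor 2 at the FPKM of 3 reads, the limit that a count of 0 allows, Trbj2-2 was at least 15.0-fold higher in tumor 1 and Trbj2-3 at least 17.9-fold.

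Tumor 3 had a step in each cluster. Trbj1-1 had no read and Trbj1-2 and Trbj1-3 had 1 each, after which Trbj1-4 had 22, Trbj1-5 had 17, Trbj1-6 had 15 and Trbj1-7 had 13. Trbj2-1 to Trbj2-4 had 2 to 7 reads, Trbj2-5 had 15 and Trbj2-7 had 72. As background, the V to J joining of a chromosome removes the J segments in front of the one used, and those behind it remain in the unspliced RNA. Whether the steps mark joined segments was not tested, since no read sequences were used.

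**Figure D3:**
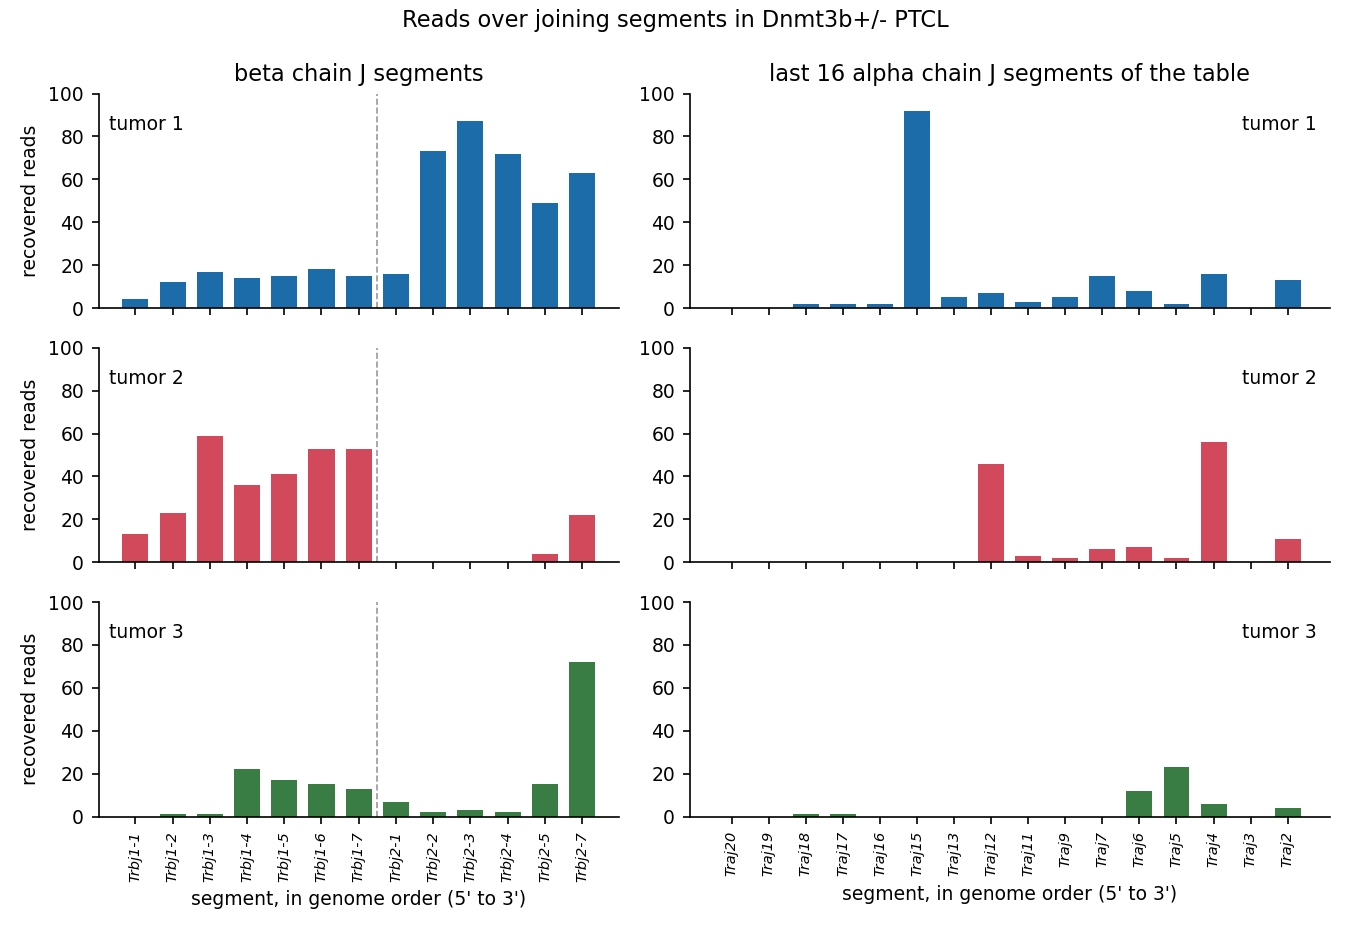
Recovered reads over the 13 beta chain J segments (left, first and second cluster parted by a dashed line) and the last 16 alpha chain J segments of the table (right), in genome order, in each tumor. Tumor 1 was high from Trbj2-2 on and at Traj15, tumor 2 across Trbj1 and at Traj12 and Traj4, and tumor 3 at Trbj2-7 and Traj5.

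Summed over segments, Trbj1 had 95 of 455 beta J reads in tumor 1, or 20.9% (95% Wilson interval 17.4% to 24.8%). In tumor 2 it had 278 of 304, or 91.4% (87.8% to 94.1%). In tumor 3 it had 69 of 170, or 40.6% (33.5% to 48.1%). Some neighbouring segments lie closer together than a read is long, so a read may be counted on more than 1 segment. The intervals treat all counts as separate reads and may therefore be too narrow. Tumor 2 thus had the highest share of the first cluster by J segments and by constant region, tumor 1 the lowest by both, and tumor 3 lay between them. The D segments Trbd1 and Trbd2 had at most 1 read in any tumor.

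**Figure D4:**
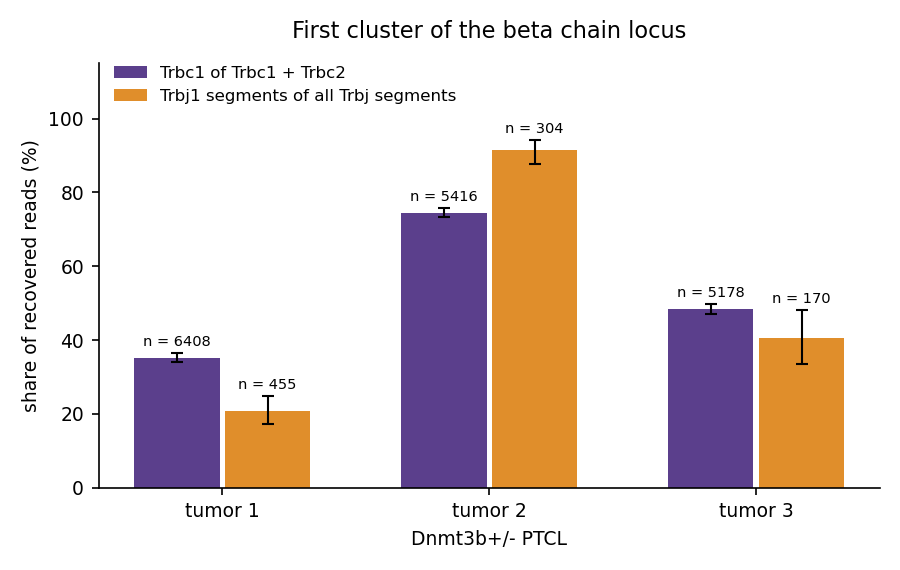
Share in percent of the first cluster of the beta chain locus among recovered reads of the constant regions (purple) and of the J segments (orange) in each tumor, with 95% Wilson intervals (whiskers) and the number of reads (n). A read may be counted on more than 1 J segment. Trbc1 made up 35.3%, 74.6% and 48.4% and Trbj1 20.9%, 91.4% and 40.6% in tumors 1, 2 and 3.

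The alpha J segments and the beta V genes were looked at after these values were seen. Of 51 alpha J segments (Traj), most had few reads or none. In tumor 1, Traj15 had 92 of 210 Traj reads, Traj4 came next with 16, and no other segment had more. In tumor 2, Traj12 had 46 and Traj4 had 56 of 133 reads, and 43 of the 51 segments had none. In tumor 3, Traj5 had 23 and Traj6 had 12 of 49 reads, and 43 segments had none. The segment with the most reads thus differed between the tumors and lay in the 3′ part of the array in each. Some segments had reads in all tumors, such as Traj6 with 8, 7 and 12 reads in tumors 1, 2 and 3. Traj15 (chr14:54204422-54204481), Traj12 (chr14:54206553-54206610) and Traj5 (chr14:54213777-54213838) are shown with the first match to TTNGG in capitals. Traj4, which had more reads than Traj12 in tumor 2, is not shown. Such a match was found in 46 of the 51 alpha segments, and in Traj18 and Traj29 the first match was TTAGG.

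Traj15: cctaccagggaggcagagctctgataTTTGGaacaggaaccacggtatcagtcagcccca
Traj12: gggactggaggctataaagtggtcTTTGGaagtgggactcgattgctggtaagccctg
Traj5: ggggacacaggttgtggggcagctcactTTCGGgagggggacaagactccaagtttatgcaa

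Of 22 beta V genes, 1 led in each tumor. Trbv12-2 led in tumor 1 with 318 FPKM, which was 18.7 times the next gene. Trbv20 led in tumor 2 with 578 FPKM, or 414 times the next. Trbv5 led in tumor 3 with 338 FPKM, or 36.8 times the next. These levels were 1.08, 1.48 and 0.975 times the summed FPKM of Trbc1 and Trbc2 in the same tumor. The leading gene made up 66.4%, 98.9% and 81.5% of the summed FPKM of the 22 beta V genes in tumors 1, 2 and 3. Tumor 1 thus had the largest part of this sum on other V genes. Each tumor therefore differed from the others in its leading V gene, alpha J segment and beta J segments.

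Of the CD8 chains, Cd8a (ENSMUSG00000053977, chr6:71373427-71379173) had 259, 122 and 218 FPKM in tumors 1, 2 and 3, with 28892, 8401 and 16473 reads. Its protein, CD8 alpha, can form a dimer with itself or with CD8 beta. Cd8b1 (ENSMUSG00000053044, chr6:71322788-71337494), which encodes CD8 beta, had 435, 166 and 443 FPKM in tumors 1, 2 and 3, with 19808, 4669 and 13657 reads. Both chains were lowest in tumor 2, Cd8b1 more so. The ratio of Cd8b1 to Cd8a was 1.68, 1.36 and 2.03 in tumors 1, 2 and 3, and its order of tumors was that of Cd8b1 itself. Neither gene overlaps another gene of the table.

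Against Ptprc, which encodes the leukocyte protein CD45 and varied little (90.4, 87.4 and 75.3 FPKM), Cd8b1 was 4.81, 1.90 and 5.89 times as high in tumors 1, 2 and 3. Cd3e was 0.624, 0.894 and 0.867 times the FPKM of Ptprc. Cd8a was 2.86, 1.39 and 2.90 times, Cd3g 0.872, 1.21 and 1.22 times and Trbc2 2.16, 1.20 and 2.47 times the FPKM of Ptprc. Set against this gene, the CD8 chains were still lowest in tumor 2 and Cd3e in tumor 1, but Cd8a, Cd3g and Trbc2 were highest in tumor 3, by little for Cd8a and Cd3g.

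The highest tumor reached at least 2 times the lowest for 3 of the 9 genes, namely Cd8a (2.12-fold), Cd8b1 (2.67-fold) and Trbc1 (2.90-fold). This share of 33.3% stands beside 34.4% of all 11197 genes with a mean of at least 1 FPKM, 43.4% of those from 0.2 FPKM on and 27.7% of those from 10 FPKM on, a level that all 9 chains reached. Without tumor 2, no gene of the 9 passed, against 17.6% of all genes, and without tumor 1 only Cd8b1 did, against 15.8%. The other 6 genes ranged from 1.29-fold for Trac to 1.86-fold for Trbc2. The median over the 9 genes was 1.66-fold, compared with 1.68-fold over all genes with a mean of at least 1 FPKM.

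By highest tumor, the 9 genes split into 2 in tumor 1 (Cd8a and Trbc2), 4 in tumor 2 (Cd3e, Cd3g, Trac and Trbc1) and 3 in tumor 3 (Cd3d, Cd247 and Cd8b1). Over all genes with a mean of at least 1 FPKM, tumor 1 held the highest value of 50.6%, tumor 2 of 33.7% and tumor 3 of 15.7%. By lowest tumor, 5 of the 9 were lowest in tumor 1, where 24.3% of all genes were, and 4 in tumor 2, where 38.3% were. None was lowest in tumor 3, against 37.4% of all genes. Scaling bears on the close cases. With FPKM rescaled to the same sum, Cd8b1 was highest in tumor 1, and Cd3e, Cd3g and Trac were lowest in tumor 3. With median-of-ratios factors, Trbc2 was highest in tumor 3. The low CD8 chains and Trbc2 of tumor 2 and its high Cd3e, Cd3g, Trac and Trbc1 kept their place under both scalings.

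By mean level per kilobase over the 3 tumors, the order was Cd8b1 (348 ± 158 FPKM, SD, n = 3), Cd8a (199 ± 70.3), Trac (187 ± 24.4), Trbc1 (181 ± 94.6), Trbc2 (162 ± 49.6), Cd3d (143 ± 37.0), Cd3g (92.1 ± 13.4), Cd3e (66.6 ± 10.9) and Cd247 (26.4 ± 5.76). Of the 8 pairs of neighbours in this order, 4 had the same order in every tumor, namely Cd8b1 over Cd8a, Cd3d over Cd3g, Cd3g over Cd3e and Cd3e over Cd247. From Cd8a down to Cd3d, neighbours differed by less than their spread and changed places between tumors. The difference between Cd8b1 and Cd8a, 149 FPKM, was also smaller than the SD of Cd8b1.

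These levels depend on the exon length that they are divided by. The merged exons have 4080 bases for Cd3e and 3269 for Cd3g, whereas the longest coding transcripts have 1462 and 1023 bases. Per kilobase of the longest coding transcript, a measure chosen after the data were seen, Cd3g had a mean of 294 and Cd3e of 186, above Cd3d with 160.1. By this measure Cd3g was second after Cd8b1, above Cd8a (232), Trac (187), Trbc1 (184) and Trbc2 (162). The order of means between Cd8b1 at the top and Cd247 at the bottom is therefore not settled by these data, whereas Cd3g was above Cd3e in every tumor by both measures, and Cd247 was lowest by both (47.6 by the second). Ratios of a gene between tumors do not depend on length.

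The CD4 coreceptor and gamma-delta receptor genes were compared with the CD8 and alpha-beta chains. Cd4, whose protein binds MHC class II, had 28.4, 4.28 and 8.22 FPKM in tumors 1, 2 and 3. This was 0.110, 0.0351 and 0.0377 times the FPKM of Cd8a. Zbtb7b, a transcription factor of the CD4 lineage, had 3.07, 2.65 and 3.18 FPKM. Cd4 was thus low beside Cd8a in each tumor and highest in tumor 1.

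Trdc, the constant region of the delta chain, had 37, 3 and 15 reads in tumors 1, 2 and 3, or 0.312, 0.0409 and 0.187 FPKM. The gamma constant regions were read under the names the table gives them, after their values were seen. Tcrg-C2 had 37.7, 1.10 and 0.527 FPKM in tumors 1, 2 and 3, and Tcrg-C1 had 16.3, 0.171 and 1.09 FPKM. Tcrg-C4 had 11.6, 0.642 and 0.440 FPKM. Tcrg-C3, in contrast, led in tumor 2 with 10.7 FPKM, compared with 0.551 in tumor 1 and no read in tumor 3. These genes are similar to each other, which makes the split between them uncertain. Ptcra, the partner of the beta chain before the alpha chain is made, had no read in any tumor, which allows up to 0.0761, 0.123 and 0.113 FPKM.

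The assembly of the receptor was followed through lists of genes with known roles. For comparison, the median over all genes with a mean of at least 1 FPKM was 6.16, 5.39 and 5.04 FPKM in tumors 1, 2 and 3, and, as given above, 34.4% of these genes passed 2-fold and 50.6% were highest in tumor 1. Of 8 genes for assembly and transport in the endoplasmic reticulum, all were above 1 FPKM in every tumor, with medians of 99.6, 67.0 and 52.2 FPKM. Of these, 7 were highest in tumor 1, among them the 3 most abundant, Pdia3, Calr and Hsp90b1, and only P4hb passed 2-fold. Pdia3, which helps glycoproteins to fold, had 188, 107 and 94.4 FPKM.

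The ligand side was high throughout. B2m, the light chain of MHC class I, had 2327, 1573 and 1781 FPKM in tumors 1, 2 and 3, H2-D1 had 603, 1238 and 777, and H2-K1 had 231, 373 and 273. The heavy chains were highest in tumor 2 and B2m in tumor 1. H2-D1 and H2-K1 belong to a family of similar genes, so their reads are uncertain.

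Of 18 proximal kinases and adaptors, 17 were above 1 FPKM in every tumor, with medians of 36.3, 47.1 and 37.8 FPKM, and 4 passed 2-fold. Lck, the kinase that CD8 carries, was the most abundant with 159.6, 208 and 207 FPKM, followed by Cd2 with 135, 101 and 104 and Lat with 147, 82.7 and 63.3. Zap70, chosen after its values were seen, had 31.2, 79.0 and 42.8 FPKM and so was highest in tumor 2. Trat1, an adaptor that binds the zeta chain and was likewise chosen afterwards, fell in the other direction with 13.4, 0.231 and 2.82 FPKM.

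Of 12 genes for negative control of the receptor, 11 were above 1 FPKM in every tumor and 4 of these passed 2-fold, with medians of 17.8, 22.0 and 18.5 FPKM. The most abundant were Ptpn6 (65.0, 187 and 125 FPKM), Dgka (97.1, 36.3 and 63.5) and Sla (17.6, 48.2 and 25.8). Sla, an adaptor that lowers receptor levels, and the phosphatase Ptpn6 were highest in tumor 2, and the lipid kinase Dgka was lowest there. Of 12 early response genes of TCR signaling, 7 were above 1 FPKM in every tumor, with medians of 3.07, 1.83 and 1.48 FPKM. By mean over the tumors, Myc led them with 55.2, 38.0 and 30.4 FPKM, and Cd5 had 34.5, 53.7 and 32.9 and Nfkbid 10.2, 11.1 and 7.68. Cd5 was above Myc in tumors 2 and 3.

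Of 14 transcription factors known to act at TCR, CD3 and CD8 genes, 13 were above 1 FPKM in every tumor, with medians of 14.3, 21.8 and 17.1 FPKM and sums of 486, 382 and 444 FPKM. Of the 14, 11 were highest in tumor 1 and 7 passed 2-fold. Tcf7 was the most abundant with 175, 124 and 169 FPKM, followed by Ets1 with 65.1, 44.2 and 60.0 and Ikzf1 with 63.5, 52.1 and 52.4. Runx3, which is needed for CD8 expression and was chosen after its values were seen, was highest in tumor 2, with 13.9, 36.9 and 18.5 FPKM in tumors 1, 2 and 3.

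Promoters were looked at because Cd3e and Cd3g moved together between tumors. RefSeq promoters were at hand for 5 of the 9 genes and not for Cd8b1, Trac, Trbc1 and Trbc2. The 250 bases before the RefSeq start are given for these 2 genes from GRCm38.p6, 5′ to 3′ on the minus strand, at chr9:45009612-45009861 for Cd3e and chr9:44980432-44980681 for Cd3g. In the RNA-seq table Cd3e starts further upstream, at 45009627, so the last bases printed for it lie inside the gene of the table, and its ETS match spans that start. Capitals mark matches on either strand to an E-box (CACCTG), an ETS motif (GGAAGT) or a RUNX motif (TGTGGT).

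Cd3e promoter: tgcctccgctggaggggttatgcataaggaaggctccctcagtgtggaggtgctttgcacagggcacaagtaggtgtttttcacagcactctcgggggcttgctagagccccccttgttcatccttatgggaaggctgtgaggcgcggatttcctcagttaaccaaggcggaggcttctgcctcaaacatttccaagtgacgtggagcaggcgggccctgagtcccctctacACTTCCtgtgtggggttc
Cd3g promoter: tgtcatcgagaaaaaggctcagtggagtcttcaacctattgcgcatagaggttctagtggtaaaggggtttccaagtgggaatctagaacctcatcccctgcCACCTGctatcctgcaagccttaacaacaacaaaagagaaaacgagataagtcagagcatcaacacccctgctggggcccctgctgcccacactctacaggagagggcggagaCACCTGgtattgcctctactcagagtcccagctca

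Cd3e held 1 ETS match and Cd3g held 2 E-box matches, so the 2 promoters shared none of these motifs. The E-box was found in 3 of the 5 promoters (Cd247, Cd3d and Cd3g) and in 17.2% of all 32851 promoters. The ETS motif was found in 3 (Cd247, Cd3d and Cd3e), against 19.7% of all. The RUNX motif was found in none, against 14.0% of all. A match is a description of the letters and not of binding.

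Genes with the most similar course over the 3 tumors were sought among 3423 other genes with a mean of at least 10 FPKM, by Euclidean distance of log2(FPKM + 1) minus its mean over the tumors. Nearest to Cd3e were H2afv, Ptpa, Nelfb, Usf1 and Fam207a, at distances of 0.01 to 0.02. Nearest to Cd8a were Gm37676, Tcea1, Gm17275, Zscan26 and Gm37401, at 0.02 to 0.07. None of the 10 belongs to the lists above. On the same scale, Cd3g lay at 0.04 from Cd3e and Trac at 0.07, and Trbc2 lay at 0.15 from Cd8a and Cd8b1 at 0.41. With 3 tumors, many genes share a course.

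Markers of other cell types also differed between the tumors, and their part in the results above was not tested. Of 6 mature T-cell genes, all were above 1 FPKM in every tumor, with summed levels of 457, 316 and 292 FPKM in tumors 1, 2 and 3. By mean over the tumors, Cd2 was the most abundant, and after Ptprc came Thy1, which alone passed 2-fold with 154, 24.3 and 31.9 FPKM. In tumor 1, Thy1 was above both Cd2 and Ptprc. Of 4 genes of immature T-cells, Rag2 and Ptcra had no read in any tumor, Rag1 had 2 reads in tumor 1 and none in tumors 2 and 3, and Dntt had 10.3, 0.0743 and 0.747 FPKM.

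The macrophage and monocyte markers other than Cd68 were highest in tumor 1. This tumor had the lowest Cd3e, Cd3g, Cd3d, Trac and Trbc1 and the highest Cd8a and Trbc2. Of these macrophage and monocyte markers, Lyz2 had the highest mean. All 6 were found, with summed levels of 338, 114 and 34.6 FPKM, led by Lyz2 with 215, 33.1 and 20.3, C1qa with 74.5, 24.1 and 1.44 and Cd68, which was highest in tumor 2, with 19.6, 51.2 and 9.27. The 5 erythroid markers, whose globin genes are similar copies, were also highest there, with 202, 38.4 and 4.74 FPKM, led by Hba-a1, Hba-a2 and Hbb-bs. The 5 dendritic cell markers summed to 9.24, 7.41 and 3.62 FPKM, led by Itgax, Xcr1 and Clec9a, and the 3 endothelial markers to 13.5, 12.7 and 5.08, led by Pecam1, Cdh5 and Kdr. None of these 19 genes was at 0 in any tumor.

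Stromal and pancreatic markers were highest in tumor 2, the tumor with the lowest CD8 chains. The 4 stromal genes summed to 5.20, 38.8 and 0.341 FPKM, led by Col1a1, Col3a1 and Col1a2, and the 5 pancreatic acinar genes to 63.8, 335 and 0.407 FPKM, led by Ctrb1, Prss2 and Cela1. Ctrb1 stood at 33.9 FPKM in tumor 1 and 198 in tumor 2 but was without a read in tumor 3, so, with tumor 3 taken at 3 reads, it was at least 1202-fold higher in tumor 2 than in tumor 3. B-cell markers were highest in tumor 3, where Cd3d, Cd247 and Cd8b1 were highest. The 6 B-cell genes found of 7 summed to 62.1, 50.2 and 118 FPKM, led by Cd79a (23.1, 7.31 and 49.0), Cd79b (20.1, 3.72 and 35.5) and Cd22 (5.84, 36.5 and 13.9). Cd22 was highest in tumor 2, unlike the other 5 B-cell genes.

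The 4 NK cell markers summed to 34.6, 52.8 and 51.5 FPKM and were led by Eomes, which CD8 T-cells also express, with 20.0, 39.5 and 45.0 FPKM, followed by Fcer1g with 13.9, 7.36 and 2.97 and Klrb1c with 0.308, 5.77 and 3.38. Ncr1, the defining receptor of NK cells in this list, had 18, 6 and 4 reads. Like the CD8 chains, the summed levels of the B-cell, CD4 T-cell and immature T-cell lists were lowest in tumor 2. The CD4 T-cell list, led by Cd4, summed to 31.4, 6.92 and 11.4 FPKM, and the immature T-cell list was led by Dntt. Of the 4 markers of gamma-delta T-cells, Trdc was found by its symbol, and the gamma genes, which the table lists under the Tcrg names, are given above.

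**Figure D5:**
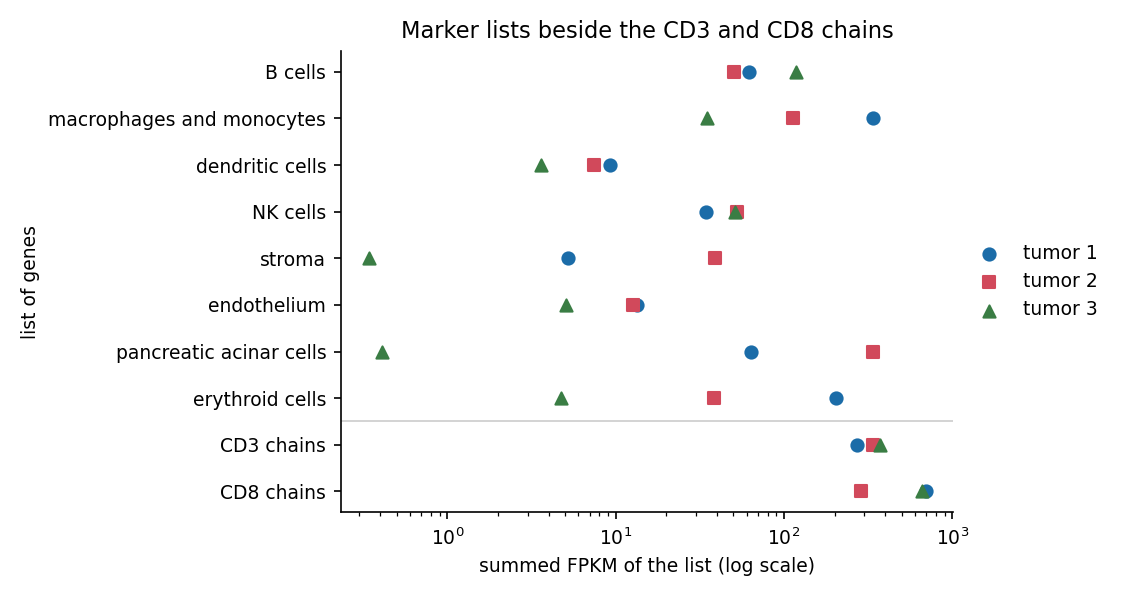
Summed FPKM of marker lists of other cell types, and of the CD3 and CD8 chains below the line, in each tumor, on a log scale. The macrophage and erythroid sums were highest in tumor 1 and the stromal and pancreatic sums in tumor 2, and the sums of the CD3 chains (271, 339 and 372 FPKM) varied less than those of the CD8 chains (693, 288 and 661 FPKM).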

How the data were processed

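Total RNA of 3 Dnmt3b+/- PTCL was sequenced as paired reads of 150 bases. The authors aligned trimmed reads with STAR (version not given) to mm10, counted reads of high mapping quality in SeqMonk and deposited FPKM. Any use of strand is not given in the sources used here. A gene with no read is listed as if it had 0.9 read, and this gave the depth. Reads were recovered from GENCODE M21 merged exon lengths. Of the genes of tumors 1, 2 and 3, 93.1%, 93.2% and 93.3% came out whole within 0.05 read, and reads are printed only for genes whole in all 3. Recovery and fold counts were run on data simulated with the same lengths and the same 0.9 read. This checks the calculation, and not whether the lengths and the 0.9 read fit the deposited values.

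The chains and the 25 lists were chosen with earlier results of these data known. Named are the chains, the 3 genes of highest mean in each list, genes of the CD4, TCR and beta J lists above 1 FPKM in some tumor, the 5 nearest genes to Cd3e and to Cd8a, and the extremes of each quantity. A gene passed the fold where its highest tumor reached 2 times the lowest. Alternatives were other scalings, folds, filters, pseudocounts, lengths and sums of repeated symbols, and leaving out each tumor. Python 3.11, pandas 2.3.3, numpy 2.4.6, scipy 1.17.1, matplotlib 3.10.9 and samtools 1.23.1 were used. Trgc1 to Trgc4 were not found by these symbols and were read as Tcrg-C1 to Tcrg-C4, outside the lists. Ighm and Trbj2-6, not found by these names, and the methylation libraries were not analysed here.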

Additional observations from a re-analysis of the deposited data

How the results depend on the processing

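The median over the 9 chains of their mean level was 162 FPKM. It was 791 with FPKM rescaled to a sum of 1000000, a change of scale by construction, and it ran from 147 without tumor 2 to 186 per longest coding transcript with the other alternatives. The number of chains past the fold, 3 at 2-fold, was 6 at 1.5-fold and 0 at 3-fold, where 62.8% and 16.4% of all genes passed. Leaving out a tumor gave 0 to 3 chains (1, 0 and 3 without tumors 1, 2 and 3, where 15.8%, 17.6% and 26.2% of all genes passed), and fewer tumors lower the spread by construction. It was 4 with rescaled FPKM and 2 with median-of-ratios factors, where 47.9% and 32.4% of all genes passed. With rescaled FPKM Trbc2 also passed (2.04-fold), and with median-of-ratios factors Cd8a no longer did (1.91-fold). The chains highest in tumor 1 were 1 in place of 2 with median-of-ratios factors, since Trbc2 moved to tumor 3. Its close values of 195 FPKM in tumor 1 and 186 in tumor 3 became 180 and 195 by this scaling. With FPKM plus 1, the mean ratio of Cd247 to Cd3e was 0.417 in place of 0.408 and that of Trbc1 to Trbc2 1.35 in place of 1.36. With a tumor left out, the mean ratio of Trbc1 to Trbc2 ran from 0.685 without tumor 2 to 1.79 without tumor 1. A mean of 3 values cannot move by more than its SD when 1 is left out, so this says nothing of how stable the ratios are. Of the 5 genes nearest to Cd3e, 3 were shared with a pseudocount of 0.1 and 1 with genes from 1 FPKM on, and of those nearest to Cd8a, 1 and 1, so these names depend on the setting. Summing repeated symbols changed no chain. No paired analysis was possible because there is a single RNA-seq group. The length measure and the removal of reads of the gene opposite Cd3e were chosen after seeing the data.

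With 3 tumors and no normal T-cells, no difference was tested. Reads on J segments are few, so their shares are the least precise values. The reference genome is of another strain than FVB, and the effect on reads at TCR segments was not tested. Intervals and limits cover counting error only.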
